A study of Schizosaccharomyces pombe with 4 samples.

Results

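The nuclear ribosomal RNA (rRNA) genes of fission yeast were followed in total, ribo-depleted RNA and in poly(A)+ RNA. Members were all features outside the mitochondrial chromosome whose identifier begins with SPRRNA, which gave 47 of 12684 features. They were divided at a length of 200 nucleotides (nt), with 33 shorter features and 14 of that length or more. By their RefSeq product (assembly ASM294v3), the 47 are 36 copies of 5S, 3 of 5.8S, 5 of 18S and 3 of 28S rRNA, so that length did not separate the RNAs: 6 of the 5S features (SPRRNA.03, SPRRNA.04, SPRRNA.29, SPRRNA.31, SPRRNA.32 and SPRRNA.37) reach 200 nt, and results are given by product as well as by length. The 2 mitochondrial rRNA features were left out by the rule.

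All 4 libraries came from vegetative haploid h- *Schizosaccharomyces pombe* cells that are called wild type but all carry leu1-32 and pat1-L95G::kanR, an allele of the meiosis-repressing kinase Pat1. The cells were grown for 2 days at 30 °C in minimal medium (EMM), and RNA was extracted with hot acid phenol. The total_RNA group holds 2 biological replicates depleted of rRNA, and the polyA_RNA group holds 2 biological replicates enriched on oligo(dT) beads. Library kit, read length, instrument and adapter trimming also differed between the groups, and their part cannot be told apart from that of the RNA fraction. The libraries held 25530272 to 30650533 counts. Vegetative genes act1, cdc2 and adh1 had at least 1735 counts in every library, whereas the meiotic genes mei3 and mei4 had at most 99. The meiotic gene spo6 held 15 and 17 counts in the total RNA replicates, against 1243 and 1983 in poly(A)+ RNA.

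In eukaryotes, RNA polymerase I transcribes the 18S, 5.8S and 28S rRNAs as 1 precursor, from which spacers are removed to release the RNAs. The 28S product is the large subunit rRNA that yeast work usually calls 25S. RNA polymerase III transcribes 5S rRNA from separate genes, which in *S. pombe* are scattered over the genome rather than placed within the rDNA repeats. Mature rRNAs carry no long poly(A) tail, although aberrant rRNAs can be adenylated in the nucleus before decay, so that rRNA in a poly(A)+ library is usually read as background.

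The 5S copies share a core of 119 nt, shown here because substitutions in it mark the copies that drew most counts in total RNA. The core was intact at 23 of the 36 loci, wholly within the annotated feature at 22 and running 4 nt beyond it at SPRRNA.55, and 6 members consist of it alone, among them SPRRNA.10 (chrI:149658-149776, + strand). The other sequences are the 6 members with most counts among those that differ from it, at chrI:1563475-1563593 (SPRRNA.53, + strand), chrI:3547900-3548018 (SPRRNA.15, - strand), chrII:2322733-2322851 (SPRRNA.35, + strand), chrII:3171572-3171683 (SPRRNA.41, - strand), chrIII:1690945-1691063 (SPRRNA.05, + strand) and chrI:912230-912348 (SPRRNA.12, - strand) in ASM294v3. Each is written 5′ to 3′ as DNA, and capitals mark substitutions against the common core. The sequence printed for SPRRNA.53 starts 4 nt before its annotated feature. That of SPRRNA.41 starts 38 nt before its feature and lacks 7 nt of the core in 1 gap.
SPRRNA.10: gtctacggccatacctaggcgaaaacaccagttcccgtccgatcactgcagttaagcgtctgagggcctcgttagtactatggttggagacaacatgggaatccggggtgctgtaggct
SPRRNA.53: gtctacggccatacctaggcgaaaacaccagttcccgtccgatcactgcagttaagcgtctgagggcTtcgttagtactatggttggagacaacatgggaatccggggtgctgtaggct
SPRRNA.15: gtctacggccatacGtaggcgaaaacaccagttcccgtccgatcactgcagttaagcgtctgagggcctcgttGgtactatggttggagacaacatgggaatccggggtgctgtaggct
SPRRNA.35: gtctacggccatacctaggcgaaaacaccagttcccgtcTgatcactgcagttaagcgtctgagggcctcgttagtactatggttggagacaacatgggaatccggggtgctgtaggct
SPRRNA.41: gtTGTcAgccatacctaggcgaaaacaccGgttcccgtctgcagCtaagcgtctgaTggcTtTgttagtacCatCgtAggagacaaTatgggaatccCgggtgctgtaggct
SPRRNA.05: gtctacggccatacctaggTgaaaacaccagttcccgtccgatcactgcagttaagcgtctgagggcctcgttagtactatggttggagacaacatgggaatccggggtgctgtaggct
SPRRNA.12: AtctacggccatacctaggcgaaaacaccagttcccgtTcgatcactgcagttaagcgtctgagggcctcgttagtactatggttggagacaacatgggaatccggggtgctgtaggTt

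The sequence of 5.8S rRNA is shown because its 3 copies are identical over all 165 nt and yet differed in counts. It was read from SPRRNA.52 at chrIII:2443248-2443412 on the + strand.
SPRRNA.52: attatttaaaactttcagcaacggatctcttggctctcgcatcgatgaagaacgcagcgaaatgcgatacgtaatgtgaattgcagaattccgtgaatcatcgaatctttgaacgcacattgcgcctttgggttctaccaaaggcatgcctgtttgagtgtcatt

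Residual nuclear rRNA took a small part of the counts in the total RNA libraries and hardly any in poly(A)+ RNA. Among total RNA libraries the 47 features took 0.389% of counts in replicate 1 (95% Wilson interval 0.387 to 0.391%) and 0.436% in replicate 2 (0.434 to 0.439%). In poly(A)+ RNA they took 0.00201% (0.00184 to 0.00219%) and 0.00255% (0.00238 to 0.00274%). Intervals cover counting error only. The share was 182-fold lower in poly(A)+ RNA, a difference of -7.51 on the log2 scale, and both poly(A)+ libraries lay below both total RNA libraries. With 2 libraries against 2, the exact two-sided permutation test cannot go below p = 0.33, which is the value it gave here. Both groups hold vegetative wild-type cells and differ in how the RNA was prepared, so the share does not measure rRNA molecules per cell. How reads with several matches were counted is not known, so the share of counts may also differ from the share of reads.

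The short features held most of the residual rRNA in total RNA and less of it in poly(A)+ RNA. Features under 200 nt took 69.2 and 60.8% of nuclear rRNA counts in the total RNA replicates and 41.2 and 40.8% in the poly(A)+ replicates. The log2 difference in their share of a library, poly(A)+ minus total RNA, was -8.17, against -6.75 for the features of 200 nt or more (exact permutation p = 0.33 for both, the smallest possible). Per nucleotide of summed feature length, the counts on short features were 9.29 and 6.39 times those on long ones in total RNA. In poly(A)+ RNA they were 2.89 and 2.85 times those on long ones, a log2 difference of -1.42 (exact permutation p = 0.33). The make-up of the short class differed: 5.8S held 99.6 and 99.7% of its counts in total RNA but 61.1 and 50.6% in poly(A)+ RNA, where 5S held the rest. The ratio also moved with how counts fell among the identical copies of 5.8S: without SPRRNA.52, left out after its values had been seen, the log2 difference widened to -2.34.

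Over all features, poly(A)+ and total RNA were tested against each other by the quasi-likelihood method of edgeR at a Benjamini-Hochberg adjusted p under 0.05. Of 11234 features tested, 35.5% were lower and 49.7% were higher in poly(A)+ RNA. Only 18 of the 47 members had enough counts to be tested: all 3 copies of 5.8S and of 28S, 4 of 5 for 18S and 8 of 36 for 5S. Of these 18, 14 were lower in poly(A)+ RNA and 0 were higher, with 0 higher at an unadjusted p under 0.05 and 0 by DESeq2. A member abundant in 1 fraction only can pass the filter through that fraction, so that this count describes the tested members and not the 29 others. The median log2 fold change was -6.16 over the tested members, 0.84 over all tested features and -0.93 over protein-coding genes. Scaling on protein-coding genes shifted the median of all features to 1.81, and the calls that this changed are given with the 5S copies.

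Per nucleotide of annotated copies, 5.8S held the most counts of the nuclear rRNAs in every library. Counts were divided by the summed length of all copies, 5927 nt over 36 for 5S and 495 nt over 3 for 5.8S. The order thus depends on the number of annotated copies and may differ from that per nucleotide of a single RNA. The counts are those left after rRNA depletion or oligo(dT) selection and do not rank the RNAs by their levels in the cell. In total RNA, counts per nucleotide were 166 and 155 for 5.8S, 3.15 and 4.34 for 28S, 0.654 and 0.768 for the complete 18S copies and 0.0624 and 0.0371 for 5S. In poly(A)+ RNA they were 0.261 and 0.323 for 5.8S, 0.0211 and 0.0314 for 28S, 0.00851 and 0.00887 for 18S and 0.0192 and 0.0396 for 5S. By this measure, 18S ranked above 5S in total RNA and below it in poly(A)+ RNA. In poly(A)+ RNA, 5S and 28S stood close together, and their order differed between the replicates. The 5.8S to 28S ratio per nucleotide was 52.8 and 35.8 in total RNA, against 12.3 and 10.3 in poly(A)+ RNA.

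**Figure D1:**
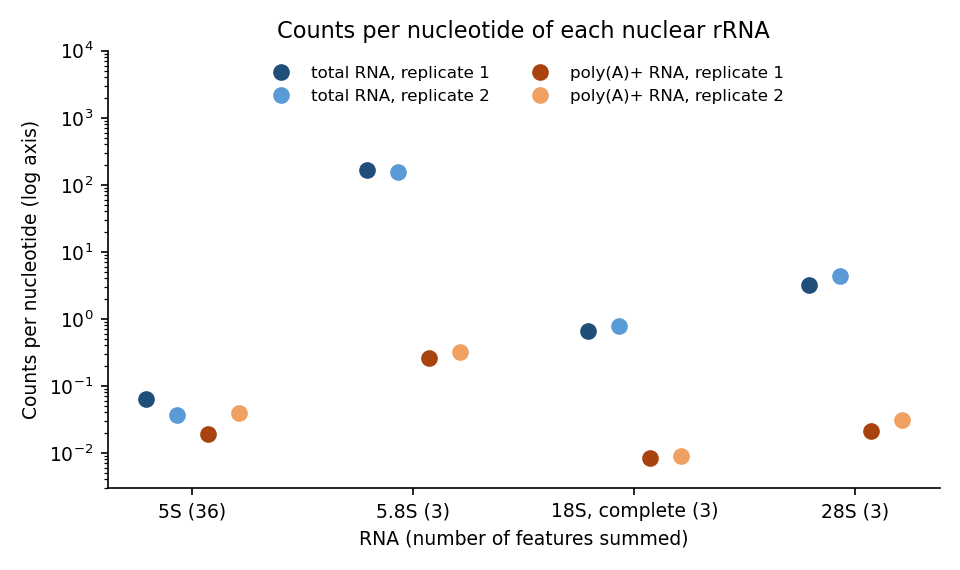
Counts on all features of each nuclear rRNA divided by their summed length (log axis), with 1 point per library. The fractions stand apart for 5.8S, 18S and 28S, and overlap for 5S.

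The rDNA features lie at both ends of the assembled chromosome III. A pair of complete units stands at the left end, both on the - strand, with 18S, 5.8S and 28S at SPRRNA.43, SPRRNA.50 and SPRRNA.47 for the outer unit and at SPRRNA.44, SPRRNA.51 and SPRRNA.48 for the inner one. The third stands at the right end on the + strand (SPRRNA.46, SPRRNA.52 and SPRRNA.49). Each unit spans 6204 nt from 18S to 28S, with a first spacer (ITS1) of 412 nt and a second (ITS2) of 300 nt. The left units are identical over this whole span and over the 500 nt on either side. The right unit has the same mature RNAs but differs at 103 positions of ITS1 and 63 of ITS2 when aligned without gaps. No window of 51 nt or of 150 nt within the complete genes occurs only once in the genome, so that a read inside 1 of them cannot be assigned to a copy by its sequence. The options for reads with several matches are not given in the sources used here.

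The 5.8S copies, whose RNA pairs with 28S in the large subunit, included the pair with the largest log2 fold changes among the tested members, SPRRNA.51 and SPRRNA.50. SPRRNA.51 held 47375 and 41465 counts in the total RNA replicates, against 3 and 13 in poly(A)+ RNA. SPRRNA.50 held 29702 and 29522 counts in the total RNA replicates, against 4 and 13 in poly(A)+ RNA. SPRRNA.52, the right copy, held 5109 and 5868 counts in the total RNA replicates, against 122 and 134 in poly(A)+ RNA. The right copy was thus the lowest of the 3 in both total RNA libraries and the highest in both poly(A)+ libraries. Their log2 fold changes were -13.09 (SE 0.373, edgeR adjusted p = 2.79e-06), -12.42 (SE 0.314, edgeR adjusted p = 2.39e-06) and -6.07 (SE 0.198, edgeR adjusted p = 3.78e-06).

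**Figure D2:**
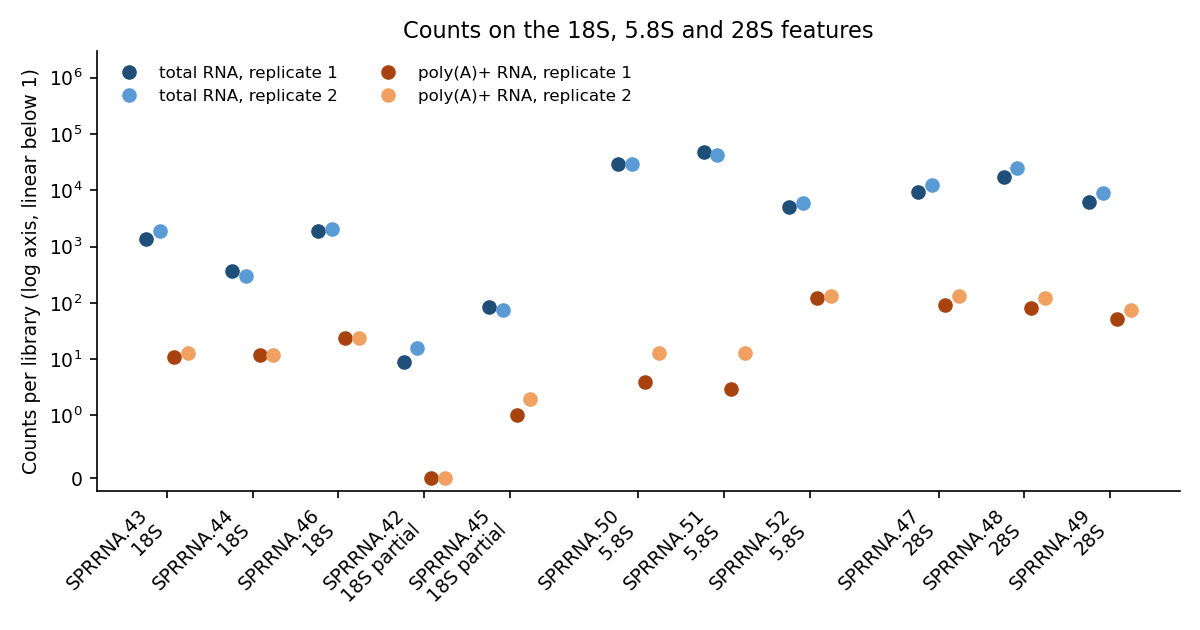
Counts per library (log axis, linear below 1) on the 11 features of 18S, 5.8S and 28S rRNA, 1 point per library. Every feature is higher in both total RNA libraries, and SPRRNA.52 is the lowest 5.8S copy in total RNA but the highest in poly(A)+ RNA.

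The share of 5.8S counts on each copy therefore turned over between the fractions. SPRRNA.52 took 6.22 and 7.64% of 5.8S counts in total RNA, against 94.6 and 83.8% in poly(A)+ RNA. The copies are identical in sequence, but the spacers of the right unit differ, with ITS2 the same for only its first 29 nt. Reads that run on into these spacers could thus be told from those of the left units. Where the reads lay was not tested, so these shares describe assigned counts and do not show which locus was transcribed. Summed over the 3 copies, 5.8S fell by 9.76 on the log2 scale (SE 0.132, edgeR adjusted p = 1.95e-06), with 82186 and 76855 counts in total RNA against 129 and 160 in poly(A)+ RNA.

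The 28S copies, which form the bulk of the large subunit rRNA, were lower in poly(A)+ RNA with shares that changed less. SPRRNA.48 held 17433 and 24410 counts in the total RNA replicates, against 80 and 122 in poly(A)+ RNA. SPRRNA.47 held 9220 and 12143 counts in the total RNA replicates, against 90 and 132 in poly(A)+ RNA. SPRRNA.49 held 6256 and 8836 counts in the total RNA replicates, against 51 and 74 in poly(A)+ RNA. Replicate 2 was higher than replicate 1 for all 3 copies in both fractions, and the fractions did not overlap. The highest copy held 2.79 and 2.76 times the counts of the lowest in total RNA and 1.76 and 1.78 times in poly(A)+ RNA, although the identical left copies SPRRNA.47 and SPRRNA.48 exchanged rank. The log2 fold changes were -7.26, -8.37 and -7.59 for SPRRNA.47, SPRRNA.48 and SPRRNA.49 (SE 0.24 to 0.279, largest edgeR adjusted p = 4.69e-06), and -7.84 (SE 0.257, edgeR adjusted p = 3.85e-06) for their sum.

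Counts on 18S, the rRNA of the small subunit, were lower than those on 28S in every library and also fell in poly(A)+ RNA. SPRRNA.46 held 1876 and 2085 counts in the total RNA replicates, against 24 and 24 in poly(A)+ RNA. SPRRNA.43 held 1374 and 1865 counts in the total RNA replicates, against 11 and 13 in poly(A)+ RNA. SPRRNA.44 held 363 and 294 counts in the total RNA replicates, against 12 and 12 in poly(A)+ RNA. The left copies SPRRNA.43 and SPRRNA.44, identical with their surroundings, thus differed several-fold in total RNA and hardly at all in poly(A)+ RNA. The log2 fold changes of SPRRNA.43, SPRRNA.44 and SPRRNA.46 were -7.72, -5.41 and -7.01 (SE 0.23 to 0.316, largest edgeR adjusted p = 1.88e-05), and that of their sum was -7.01 (SE 0.226, edgeR adjusted p = 3.6e-06).

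**Figure D3:**
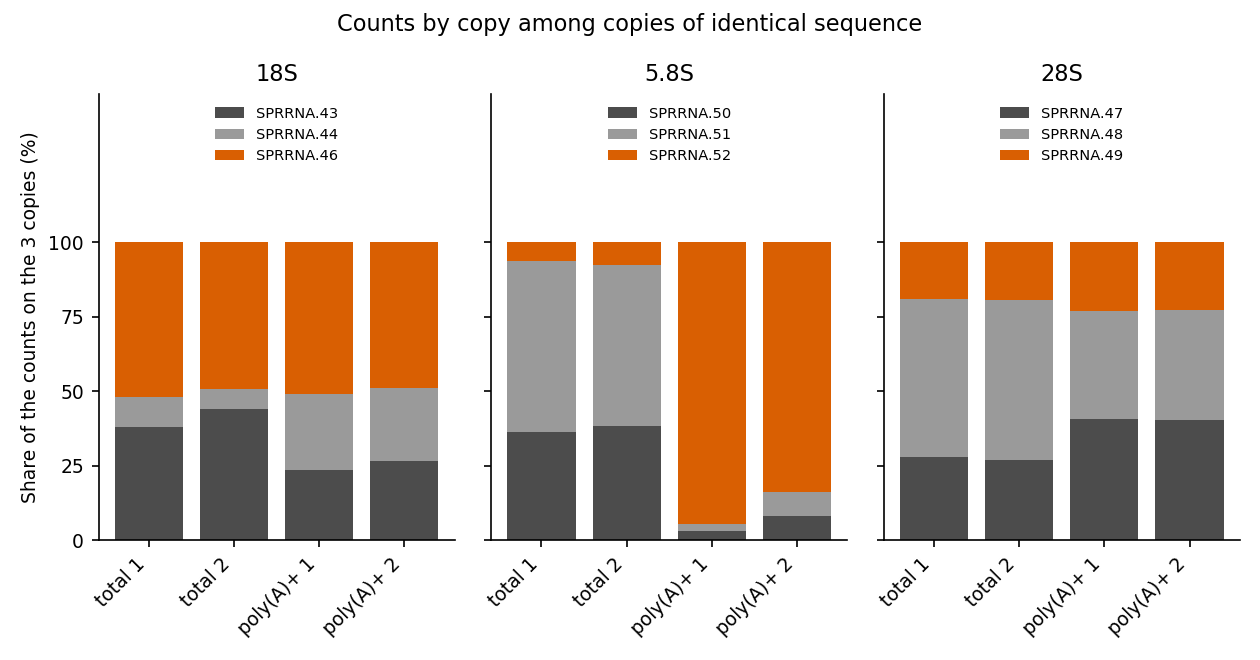
Share (%) of the counts on 3 copies of identical sequence that each copy took, for 18S, 5.8S and 28S in each library. Orange marks the copy of the right unit, which held 6.22 and 7.64% of 5.8S counts in total RNA, against 94.6 and 83.8% in poly(A)+ RNA.

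The partial 18S features at the ends of the assembly held few counts. SPRRNA.45, of 1001 nt at the right end, held 84 and 75 counts in the total RNA replicates, against 1 and 2 in poly(A)+ RNA, a log2 fold change of -6.25 (SE 0.521, edgeR adjusted p = 7.4e-05). SPRRNA.42, of 1390 nt at the left end, held 9 and 16 counts in the total RNA replicates, against 0 and 0 in poly(A)+ RNA, and was not tested. Against a floor of 3 counts per library, it was at least 3.9-fold higher in total RNA. The noncoding features opposite them, SPNCRNA.7774 over 88 nt of SPRRNA.45 and SPNCRNA.6664 over 40 nt of SPRRNA.42, had at most 28 counts in any library.

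Opposite-strand noncoding features overlap all 8 features of 18S and 28S and 1 of 5.8S, and no member overlaps a feature on its own strand. SPNCRNA.6671, over 33 nt of SPRRNA.43, held 1330 and 1111 counts in the total RNA replicates, against 3 and 0 in poly(A)+ RNA. SPNCRNA.6677, over 44 nt of SPRRNA.44, held 1327 and 1104 counts in the total RNA replicates, against 3 and 0 in poly(A)+ RNA. The pair aligns without a difference over 441 nt, and unlike the 18S copies they overlap, these identical stretches received nearly equal counts. SPNCRNA.7770, over 202 nt of SPRRNA.46, held 159 and 153 counts in the total RNA replicates, against 6 and 2 in poly(A)+ RNA. SPNCRNA.6670, over 121 nt of the 5.8S copy SPRRNA.50, held 46 and 58 counts in the total RNA replicates, against 6 and 13 in poly(A)+ RNA. The partners of 28S (SPNCRNA.6669, SPNCRNA.6676 and SPNCRNA.7771) had at most 14 counts in any library. Outside the units, the nearest features at the left end (SPNCRNA.6668, SPNCRNA.6672, SPNCRNA.6675, SPNCRNA.1094 and SPNCRNA.6665) had at most 7 counts in any library, as had SPNCRNA.7772 and SPNCRNA.7773 at the right end. The protein-coding gene SPCC569.01c, the nearest feature before SPRRNA.46, had 133 and 122 counts after depletion and 366 and 454 after oligo(dT) selection. The total RNA kit marks strand, but whether counting used it is not given in the sources used here, and the part of reads shared with these partners was not tested.

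The dispersed 5S copies, whose RNA joins the large subunit with ribosomal proteins L5 and L11, did not separate the fractions as the rDNA features did. The 36 copies lie on all chromosomes (12 on I, 16 on II and 8 on III), 21 on the + strand and 15 on the - strand, and for 8 the nearest feature on 1 side is a tRNA gene, which RNA polymerase III also transcribes. Together they held 370 and 220 counts in the total RNA replicates, against 114 and 235 in poly(A)+ RNA. As CPM of the whole library, the 5S sum was 9.82 ± 3.18 (SD, n = 2) after depletion. After oligo(dT) selection it was 6.10 ± 2.32 (SD, n = 2), and the ranges overlap. The log2 difference was -0.70 (exact permutation p = 0.667), with an SD of the log2 share of 0.476 in total RNA and 0.561 in poly(A)+ RNA. Per nucleotide, 5S held 0.0198 and 0.00855 times the counts of 28S in total RNA and 0.91 and 1.26 times in poly(A)+ RNA, a log2 difference of 6.36 (exact permutation p = 0.33, the smallest possible). The intact 5S core occurs 23 times in the genome, against 3 copies of 28S, and how reads with several matches were counted is not known. Read length also differed between the fractions, and the part of mapping in this ratio was not tested. As a part of nuclear rRNA counts, 5S made up 0.31 and 0.173% in total RNA, against 22.3 and 30.4% in poly(A)+ RNA.

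Single 5S copies were close to the detection limit. The count of the median copy was 4 and 3 after depletion, and 1.5 and 2 after oligo(dT) selection, and SPRRNA.19 had 0 in all 4 libraries. Scaled to library totals, 12 copies were lower in both poly(A)+ libraries than in both total RNA libraries, 8 were higher and 16 overlapped. No such count was made over all features, so these numbers describe the copies and are not read as a result about 5S. By edgeR, 4 of the 8 tested copies were lower in poly(A)+ RNA and 4 did not pass the threshold.

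**Figure D4:**
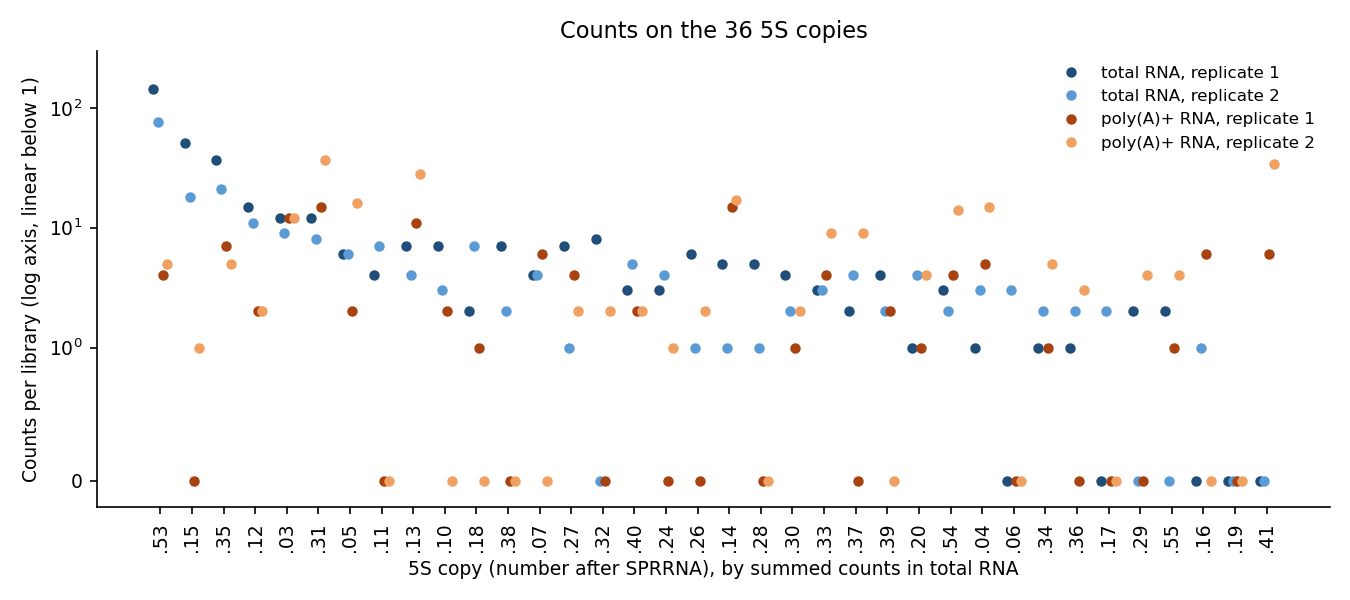
Counts per library (log axis, linear below 1) on the 36 copies of 5S rRNA, ordered by their summed counts in total RNA. SPRRNA.53, SPRRNA.15, SPRRNA.35 and SPRRNA.12 lead in total RNA, and most others have fewer than 10 counts in every library.

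The copies that led in total RNA each carry a substitution found in no other copy apart from the strongly diverged ones. Positions are counted from 1 at the 5′ end of the common core, with the base of the core first. SPRRNA.53 (C68T) held 145 and 77 counts in the total RNA replicates, the most of any 5S copy in both replicates, against 4 and 5 in poly(A)+ RNA. SPRRNA.15 (C15G and A74G) held 51 and 18 counts in the total RNA replicates, against 0 and 1 in poly(A)+ RNA. SPRRNA.35 (C40T) held 37 and 21 counts in the total RNA replicates, against 7 and 5 in poly(A)+ RNA. SPRRNA.12 (G1A, C39T and C118T) held 15 and 11 counts in the total RNA replicates, against 2 and 2 in poly(A)+ RNA. In all 4, total RNA lay above poly(A)+ RNA without overlap, and these are the 4 copies that edgeR called lower. They were picked because they led in total RNA, and they passed the filter through their counts there. The calls and fold changes thus describe these copies and are no separate support for a difference. Their log2 fold changes were -5.23 (SE 0.529, edgeR adjusted p = 0.00017), -6.38 (SE 1.03, edgeR adjusted p = 0.00137), -2.87 (SE 0.58, edgeR adjusted p = 0.00381) and -3.26 (SE 0.645, edgeR adjusted p = 0.00349) for SPRRNA.53, SPRRNA.15, SPRRNA.35 and SPRRNA.12. SPRRNA.53 overlaps no feature. Its nearest neighbours are ire1, a kinase of the unfolded protein response (3422 and 3287 counts after depletion, 1080 and 1588 after oligo(dT) selection), and the retrotransposon Tf2-2 (17 and 28, then 7 and 17). With 0 and 1 counts in poly(A)+ RNA, the fitted value of SPRRNA.15 depends on the prior count.

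Most of the sequence of these 4 features can be told from the rest of the genome. Windows of 51 nt, the length of the first read in total RNA, occur once in the genome for 78.5% of SPRRNA.53, 87.4% of SPRRNA.15, 70.1% of SPRRNA.35 and 74.4% of SPRRNA.12. Annotated bases on either side of the core count here too, and the intact copies SPRRNA.31 and SPRRNA.32 reached 48% and 79% through them alone. The 6 copies with a private substitution held 68.1 and 62.7% of 5S counts in total RNA, against 12.3 and 9.36% in poly(A)+ RNA. SPRRNA.18 (T119C) and SPRRNA.37 (G110T, C111T and C118T) belong to these 6 but had at most 7 counts in total RNA, and a window occurs once for 2.74% of the first and 64.1% of the second. The 9 intact copies with no such window summed to 20 and 18 counts in total RNA, against 13 and 13 in poly(A)+ RNA, and the 14 intact copies with unique windows in their flanks to 77 and 39 counts in total RNA, against 67 and 117 in poly(A)+ RNA. The 5 copies with only shared substitutions, C20T in SPRRNA.04, SPRRNA.05 and SPRRNA.11 and T12C in SPRRNA.30 and SPRRNA.40, summed to 18 and 23 counts after depletion and 10 and 35 after oligo(dT) selection. The copies thus differed in how much of their sequence a 51-nt window could place. Where within a copy the counts lay was not tested, nor was the part of mapping in the order of the copies. Poly(A)+ RNA was read in pairs of 150 nt, and windows of that length are 100% unique in the intact copies SPRRNA.31, SPRRNA.13 and SPRRNA.14. Windows of 51 nt therefore do not describe which copies could be told apart in poly(A)+ RNA, and read length differs between the fractions compared here. Summed before the fit, the 6 members equal to the core held 18 and 14 counts in the total RNA replicates, against 6 and 9 in poly(A)+ RNA, a log2 fold change of -1.74 (SE 0.504, edgeR adjusted p = 0.0175).

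**Figure D5:**
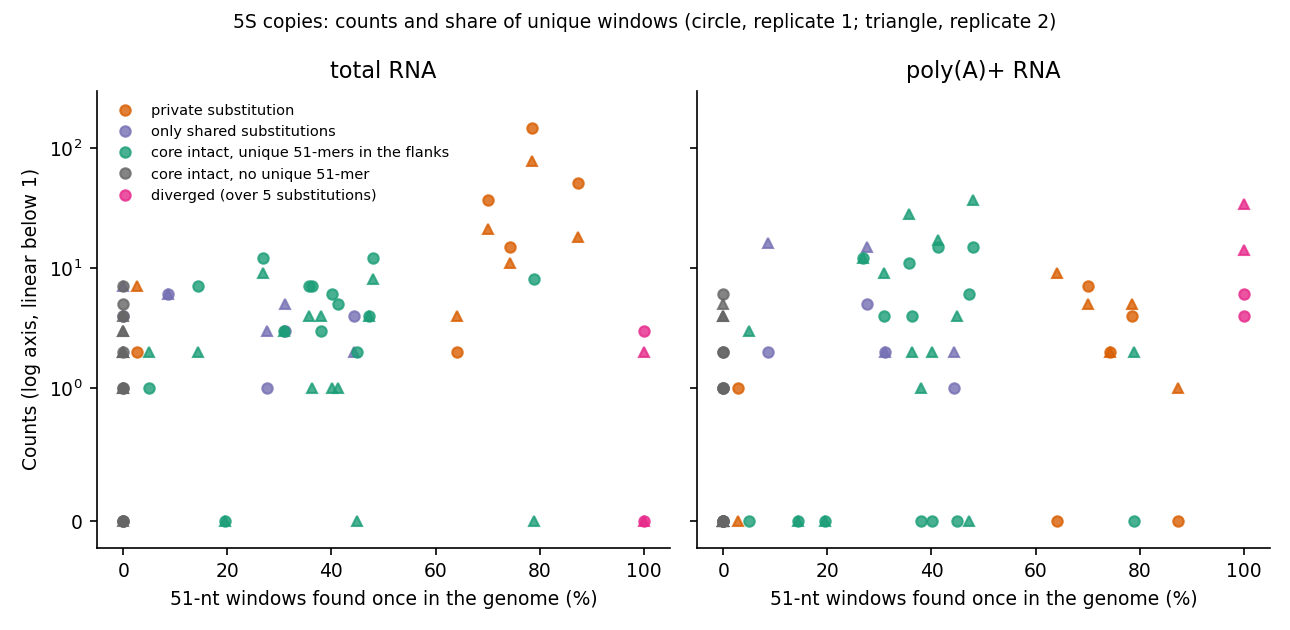
Counts per copy (log axis, linear below 1) against the share (%) of its 51-nt windows that occur once in the genome, for 36 copies of 5S rRNA in total RNA (left) and poly(A)+ RNA (right); circles are replicate 1 and triangles replicate 2. In total RNA the highest points are copies with a private substitution and 70.1 to 87.4% unique windows, which is not so in poly(A)+ RNA.

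Other copies led in poly(A)+ RNA. SPRRNA.31 held 12 and 8 counts in the total RNA replicates, against 15 and 37 in poly(A)+ RNA. SPRRNA.13 held 7 and 4 counts in the total RNA replicates, against 11 and 28 in poly(A)+ RNA, and SPRRNA.14 had 5 and 1 in total RNA, against 15 and 17 in poly(A)+ RNA. All 3 have an intact core and lie opposite a noncoding feature whose own counts were also higher in poly(A)+ RNA: SPNCRNA.4875 with 0 and 0 against 12 and 55, SPNCRNA.3342 with 4 and 1 against 28 and 49, and SPNCRNA.3412 with 1 and 5 against 26 and 26. The part of the partners in the 5S counts was not tested. Over all tested features, 49.7% were called higher in poly(A)+ RNA, and partners of other copies were higher there too. Among them are SPNCRNA.5599, opposite SPRRNA.35, which was called lower, and SPNCRNA.3896, opposite SPRRNA.20, whose counts did not differ. The log2 fold changes of SPRRNA.31, SPRRNA.13 and SPRRNA.14 were 0.68 (SE 0.548), 1.12 (SE 0.626) and 1.74 (SE 0.736), with edgeR adjusted p of 0.284, 0.139 and 0.0656. None passed the threshold, but with the scaling on protein-coding genes all 3 were called higher, and with library totals alone SPRRNA.13 and SPRRNA.14 were. SPRRNA.03, also with an intact core, held 12 and 9 counts in the total RNA replicates, against 12 and 12 in poly(A)+ RNA, with a log2 fold change of -0.45 (SE 0.514, edgeR adjusted p = 0.439) that turned positive under both of these scalings. SPNCRNA.7343, opposite SPRRNA.03 over 176 nt, had 0 and 1 counts after depletion and 16 and 16 after oligo(dT) selection.

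The diverged copies were found mainly in poly(A)+ RNA. SPRRNA.41, whose locus has 14 substitutions against the core, 9 of them within the annotated 80 nt, held 0 and 0 counts in the total RNA replicates, against 6 and 34 in poly(A)+ RNA. It overlaps no other feature, and against a floor of 3 counts per library it was at least 6.74-fold higher in poly(A)+ RNA, although its poly(A)+ replicates differed widely. It had too few counts for the main test and was called higher when the filter on low counts was dropped or poly(A)+ replicate 1 was left out. SPRRNA.54, whose locus has 24 substitutions, 21 of them within the feature, held 3 and 2 counts in the total RNA replicates, against 4 and 14 in poly(A)+ RNA, and lies opposite SPNCRNA.5963 with 56 and 53 against 3679 and 5422.

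The remaining named 5S features were sparse in both fractions. SPRRNA.37 held 2 and 4 counts in the total RNA replicates, against 0 and 9 in poly(A)+ RNA, while SPNCRNA.6459 on the opposite strand, which covers all of its 220 nt, had 130 and 128 in total RNA, against 22901 and 33475 in poly(A)+ RNA. SPRRNA.04 (C20T) held 1 and 3 counts in the total RNA replicates, against 5 and 15 in poly(A)+ RNA, opposite SPNCRNA.7382 with 28 and 44 against 80 and 205. SPRRNA.32, at 440 nt the longest 5S feature, held 8 and 0 counts in the total RNA replicates, against 0 and 2 in poly(A)+ RNA and overlaps nothing. SPRRNA.29 held 2 and 0 counts in the total RNA replicates, against 0 and 4 in poly(A)+ RNA, opposite SPNCRNA.1366 with 104 and 113 against 99 and 123. None of these was tested. Among the nearest features of the 5S copies of 200 nt or more, the S-adenosylmethionine synthetase gene sam1, on 1 side of SPRRNA.37, was the most abundant, with 142024 and 133568 counts after depletion and 133896 and 167596 after oligo(dT) selection. The gene rar1, beside SPRRNA.32, had 14092 and 13529 and then 3264 and 5144. The other neighbours had at most 1143 counts in any library. The 23 copies with an opposite-strand partner summed to 168 and 102 counts in total RNA, against 87 and 188 in poly(A)+ RNA, and the 13 without one to 202 and 118 and to 27 and 47.

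The genes that make and process rRNA are read here beside all 5008 tested protein-coding genes, of which 72.4% were lower and 7.89% higher in poly(A)+ RNA, with a median log2 fold change of -0.93. Of the listed RNA polymerase I genes, 18 of 20 were matched and tested, with 12 lower in poly(A)+ RNA, 1 higher and 5 not past the threshold, and a median log2 fold change of -0.83. The lowest were nuc1 (-3.34) and rpa2 (-2.06), which encode the largest subunits, and the highest was rpa34 (2.08), another subunit, followed by rrn10 (-0.12), which did not pass. Of 25 RNA polymerase III and 5S transcription genes, 22 were tested, with 16 lower, 1 higher and 5 not past the threshold, and a median of -0.90. The lowest were rpc1 (-2.51) and rpc2 (-2.26), again the largest subunits, and the highest was sfc2 (0.53, edgeR adjusted p = 0.0448), which encodes the 5S-specific factor TFIIIA, followed by rpc10 (0.39), which did not pass. Of 40 genes for the 5S particle and rRNA processing, 36 were tested, with 31 lower, 1 higher and 4 not past the threshold, and a median of -1.13. Here rrp5 (-3.45) and utp10 (-3.18), for large factors of early rRNA processing, were lowest, and fib1 (0.56), for the rRNA methyltransferase fibrillarin, was highest, followed by gar1 (-0.01), which did not pass. These counts followed the scaling: with factors from protein-coding genes, 6 rose and 4 fell in the first list, 7 and 3 in the second, and 7 and 12 in the third, against 26.5% higher and 24.4% lower over protein-coding genes.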

How the data were processed

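RNA-seq of 4 *S. pombe* libraries was analysed from gene counts. The authors trimmed adapters (Cutadapt 1.15 for total RNA, which was sequenced as pairs of 51 and 35 nt, and fastp 0.23.1 for poly(A)+ RNA, as pairs of 150 nt), aligned reads with STAR 2.6.1d and deposited counts per feature from featureCounts (Subread 2.0.6), without normalization. The build and the options for strand, overlaps and repeated matches are not given in the sources used here. The deposited tables have 9 header cells over 8 fields, so a column of counts stands under another name, and fields were taken by position.

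Features were matched to RefSeq ASM294v3 (12602 of 12684). All 47 members have the same start and end there, and their sequences were read from it. Windows were searched on both strands of the whole assembly.

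edgeR 4.0.16 in R 4.3.3 (TMM, filterByExpr, quasi-likelihood test) was fitted to all features with 2 libraries per fraction, at an adjusted p under 0.05, and was tested on simulated data. SE is the size of the log2 fold change divided by the square root of F. Shares and ratios were tested by exact permutation (scipy 1.17.1). DESeq2 1.42.0, other normalizations and filters, a replicate block, leaving out each library and other member sets were tried as alternatives. The members and gene lists were chosen with earlier results of these data known. Named singly were members of 200 nt or more, or with at least 100 counts over the 4 libraries, with their overlapping features, and the 2 highest and lowest genes of each list. Other 5S copies described were chosen after their values were seen.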

Additional observations from a re-analysis of the deposited data

How the results depend on the processing

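The count of 14 members lower in poly(A)+ RNA stayed at 14 with DESeq2's size factors, library totals, factors from protein-coding genes, DESeq2 and the replicate block, and was 17 without the filter and 10 with a mean of 50 counts or more. It was 9 with identical sequences summed and 4 without members that overlap another feature, since fewer members remain to be tested. Leaving out 1 library gave 14 to 15. The count of 0 members higher became 2 with library totals alone (SPRRNA.13 and SPRRNA.14), 3 with factors from protein-coding genes (with SPRRNA.31) and 1 without the filter (SPRRNA.41), and was 0 to 1 with a library left out, where the lone library is assumed to vary like the other fraction. SPRRNA.03 turned to 0.29 with library totals and 0.52 with factors from protein-coding genes. Of 117 alternative log2 fold changes of the 13 tested members that the rule named singly, 114 kept direction and call. SPRRNA.12, SPRRNA.13, SPRRNA.14, SPRRNA.15 and SPRRNA.35 were tested but are not among these 13. The calls of SPRRNA.13 and SPRRNA.14 changed with the scaling. The log2 differences in share stayed negative under every alternative run, at -7.68 to -7.34 with a library left out for all members, -8.34 to -8.00 for short and -7.00 to -6.49 for long ones, and the short to long ratio at -1.70 to -1.16. Classing members by product, chosen after the data were seen, gave -0.95 for that ratio. Without overlapping members 1 long feature is left, with 0 counts in 2 libraries, and no value could be had. Replicate numbers did not pair the libraries (r = -0.0175 over 11234 features), and the fit with a replicate block gave 14 lower and 0 higher. Depth limits the 5S copies most: 28 of 36 could not be tested.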
